A study of Mus musculus with 7 samples.

Results

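Hemoglobin and erythroid precursor transcripts were examined in RNA sequencing libraries of primary T-cells from ORP4L knock-in (KI) and wild-type (WT) mice. The 9 genes were chosen by name from the 25033 genes listed in each library. They are the adult globin genes Hba-a1, Hba-a2, Hbb-bs and Hbb-bt, and the erythroid precursor genes Alas2, Slc4a1, Klf1, Epor and Car2. The mice were C57BL/6J, 15 months old, with 4 ORP4L KI and 3 WT littermate animals and 1 library per animal. ORP4L KI mice carry human ORP4L, an oxysterol-binding protein, in the Rosa26 locus behind a stop cassette that Cre removes, and Cre is driven by the Lck promoter, which is active in T-lineage cells. The inserted sequence is Flag-tagged, is driven by the CAG promoter and is followed by EGFP. The labels name WT mice by genotype alone, so whether they carry Cre or the unrecombined allele is not stated. The study describes the ORP4L KI mice as moribund when compared with WT mice of the same age. T-cells were prepared from blood mononuclear cells or splenocytes after lysis of red blood cells. The methods then name a selection of naive CD4+ cells, a step meant to remove other cell types, and culture with IL-2 and the mitogen PHA, without saying whether the sequenced cells went through both. Neither the labels nor the methods state which source a library came from.

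Red blood cells form from progenitors in marrow and, in mice, also in the spleen. Erythropoietin acts through its receptor Epor on early progenitors, and the zinc-finger factor Klf1 switches on the genes of hemoglobin, heme and the red cell membrane. Maturing erythroblasts and reticulocytes then fill with globin mRNA, which stays in the cell after the nucleus is lost. Hemoglobin is a tetramer of alpha and beta chains, each holding a heme, and T-cells are not a usual source of it.

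The libraries held 12918187 to 15912921 reads in WT and 16757959 to 19665679 reads in ORP4L KI, and 13462 genes passed the filter for low counts. Osbp2, the mouse gene for ORP4L, had 0 to 1 reads in WT and 155 to 742 reads in ORP4L KI libraries. The inserted sequence is human and the reads were mapped to a mouse reference. Whether these reads come from the insert or from the mouse gene was not tested. The T-cell label was checked with 9 listed markers, among them Cd3e, Cd3g, Cd4, Cd8a and Lck, all detected in every library, with a summed level of 1864 to 2542 CPM (reads relative to library size, here scaled between libraries by the TMM method) in WT and 1236 to 3598 CPM in ORP4L KI. Transcripts of other blood cells were present too. Neutrophil lineage markers summed to 1967 to 5178 CPM in WT and 10724 to 147700.4 CPM in ORP4L KI, where replicate 1 was the highest.

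The globin genes lie in 2 clusters. By RefSeq on GRCm38.p6, the same assembly as the mm10 named in the labels, Hba-a1 is at chr11:32283672-32284486 and Hba-a2 at chr11:32296492-32297310, while Hbb-bs is at chr7:103826523-103827928 and Hbb-bt at chr7:103812524-103813923. The members of each pair are nearly identical. The coding sequences of Hba-a1 and Hba-a2, each 426 bases without the stop codon in GENCODE vM21, differed at 1 position, C381T, counted from the A of the start codon with the Hba-a1 base first. Those of Hbb-bs and Hbb-bt, each 441 bases, also differed at 1 position, C417T with the Hbb-bs base first. The stretches that hold these positions are shown because a read that does not cover the base in capitals, or the sequence outside the coding part, cannot be given to either gene.
Hba-a1, coding bases 361 to 426: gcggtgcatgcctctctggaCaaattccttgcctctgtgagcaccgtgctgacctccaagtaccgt
Hba-a2, coding bases 361 to 426: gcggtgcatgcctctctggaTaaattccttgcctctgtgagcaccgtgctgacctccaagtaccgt
Hbb-bs, coding bases 318 to 417: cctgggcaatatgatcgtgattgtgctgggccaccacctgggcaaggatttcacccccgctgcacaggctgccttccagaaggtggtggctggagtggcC
Hbb-bt, coding bases 318 to 417: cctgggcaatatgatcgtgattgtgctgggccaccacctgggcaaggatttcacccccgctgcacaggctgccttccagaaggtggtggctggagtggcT

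Of the 377 windows of 50 bases in the Hba-a1 coding sequence, 331 (87.8%) were also in Hba-a2. Of the 392 windows in Hbb-bs, 367 (93.6%) were also in Hbb-bt. Reads longer than 50 bases would be shared less often than these windows. The alpha and beta genes shared 0 windows, with 55.1% identity between Hba-a2 and Hbb-bs. Levels of the single genes within a pair are therefore uncertain, and sums over each pair are given beside them. The tables also list Hbb-b1 and Hbb-b2, the adult beta globin genes of another mouse haplotype, which had 1 to 43 and 0 to 3 reads, so few beta globin reads were placed there.

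Adult alpha globin was among the most abundant transcripts of the WT libraries and was lower in every ORP4L KI library. Hba-a2, which encodes an alpha chain, had 5643, 9189 and 4592 CPM in WT replicates 1, 2 and 3 and 1374, 477, 3981 and 1813 CPM in ORP4L KI replicates 1, 2, 3 and 4. By read count it ranked 2 to 3 among all genes in WT libraries and 16 to 289 in ORP4L KI libraries. The groups did not overlap, but ORP4L KI replicate 3 came close to WT replicate 3. The mean was 6475 ± 2409 CPM (SD, n = 3) in WT and 1911 ± 1488 CPM (SD, n = 4) in ORP4L KI, or 3.39-fold lower in ORP4L KI. This log2 fold change of -1.76 had a standard error of 0.59 and did not pass Benjamini-Hochberg adjustment over all genes (edgeR quasi-likelihood test, adjusted p = 0.21). Hba-a1, which encodes the same chain, had 924, 1539 and 844 CPM in WT and 427, 90.6, 679 and 359 CPM in ORP4L KI replicates 1 to 4. Its groups were also apart, at a log2 fold change of -1.50 (standard error 0.54, edgeR adjusted p = 0.242).

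Adult beta globin was also lower in every ORP4L KI library, and Hbb-bs ordered the libraries as Hba-a2 did. Hbb-bs had 4353, 7117 and 3936 CPM in WT replicates 1, 2 and 3 and 969, 429, 3469.9 and 1378 CPM in ORP4L KI replicates 1, 2, 3 and 4. It ranked 4 to 8 among all genes in WT and 19 to 328 in ORP4L KI libraries. Replicate 3 was again the highest ORP4L KI library and replicate 2 the lowest, and no ORP4L KI library reached the WT range. The log2 fold change was -1.72 (standard error 0.59, edgeR adjusted p = 0.228), that is 3.29-fold lower in ORP4L KI. Hbb-bt, the less abundant beta gene, had 299, 496 and 313 CPM in WT and 108, 30.8, 236 and 86.9 CPM in ORP4L KI replicates 1 to 4, at a log2 fold change of -1.68 (standard error 0.54, edgeR adjusted p = 0.19). With each pair summed to 1 row, which removes the effect of how shared reads were divided, the log2 fold change was -1.72 for alpha globin (edgeR adjusted p = 0.214) and -1.72 for beta globin (edgeR adjusted p = 0.225). Within ORP4L KI the highest library had 8.35 times the Hba-a2 of the lowest and 8.09 times the Hbb-bs, while within WT these ratios were 2.0 and 1.81.

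The heme enzyme Alas2 varied with the globins. It encodes the erythroid form of 5-aminolevulinate synthase, the rate-limiting step of heme synthesis, and lies at chrX:150547417-150570622. Alas2 had 97.4, 142 and 114 CPM in WT replicates 1, 2 and 3 and 25.6, 12.6, 90.6 and 32.5 CPM in ORP4L KI replicates 1, 2, 3 and 4. Replicate 3 was close to the lowest WT library, and the groups did not overlap. The mean was 118 ± 22.4 CPM (SD, n = 3) in WT and 40.3 ± 34.5 CPM (SD, n = 4) in ORP4L KI, or 2.92-fold lower in ORP4L KI (log2 fold change -1.54, standard error 0.54, edgeR adjusted p = 0.233).

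The other precursor genes were not separated by genotype. Slc4a1 encodes band 3, the chloride and bicarbonate exchanger of the red cell membrane, and lies at chr11:102348820-102365281. It had 12.9, 17.6 and 5.69 CPM in WT and 29.4, 18.1, 58.3 and 8.02 CPM in ORP4L KI replicates 1 to 4. ORP4L KI replicates 1, 2 and 3 were above every WT library and replicate 4 was below 2 of the WT libraries. The log2 fold change was 1.24 (standard error 0.62, 95% interval -0.15 to 2.62, edgeR adjusted p = 0.432), the opposite sign to the globins but not past the test.

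Klf1, the erythroid transcription factor at chr8:84901982-84905291, had 7.21, 8.68 and 2.46 CPM in WT and 8.22, 5.59, 9.07 and 3.17 CPM in ORP4L KI replicates 1 to 4. These levels rested on 35 to 158 reads per library, and the groups overlapped almost fully. The log2 fold change was 0.09 (standard error 0.48, 95% interval -0.98 to 1.16, edgeR adjusted p = 0.963). Epor, the erythropoietin receptor at chr9:21958897-21963576, had 5.03, 5.72 and 2.11 CPM in WT and 7, 3.29, 6.72 and 2.55 CPM in ORP4L KI. Its log2 fold change was 0.19 (standard error 0.47, 95% interval -0.86 to 1.24, edgeR adjusted p = 0.92). Car2, a carbonic anhydrase of red cells and other tissues at chr3:14886269-14900770, had 110.1, 129 and 46.3 CPM in WT and 131, 93.0, 134 and 54.4 CPM in ORP4L KI. Its log2 fold change was 0.12 (standard error 0.40, 95% interval -0.77 to 1.01, edgeR adjusted p = 0.94). WT replicate 3 and ORP4L KI replicate 4 were the 2 lowest libraries for each of Slc4a1, Klf1, Epor and Car2. The intervals of Klf1, Epor and Car2 leave room for changes of about 1 on the log2 scale in either direction, and the sign of each turned to negative when WT replicate 3 was left out (log2 fold changes -0.28, -0.14 and -0.21). It also turned without ORP4L KI replicate 1 or without ORP4L KI replicate 3, to between -0.11 and -0.0044.

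**Figure D1:**
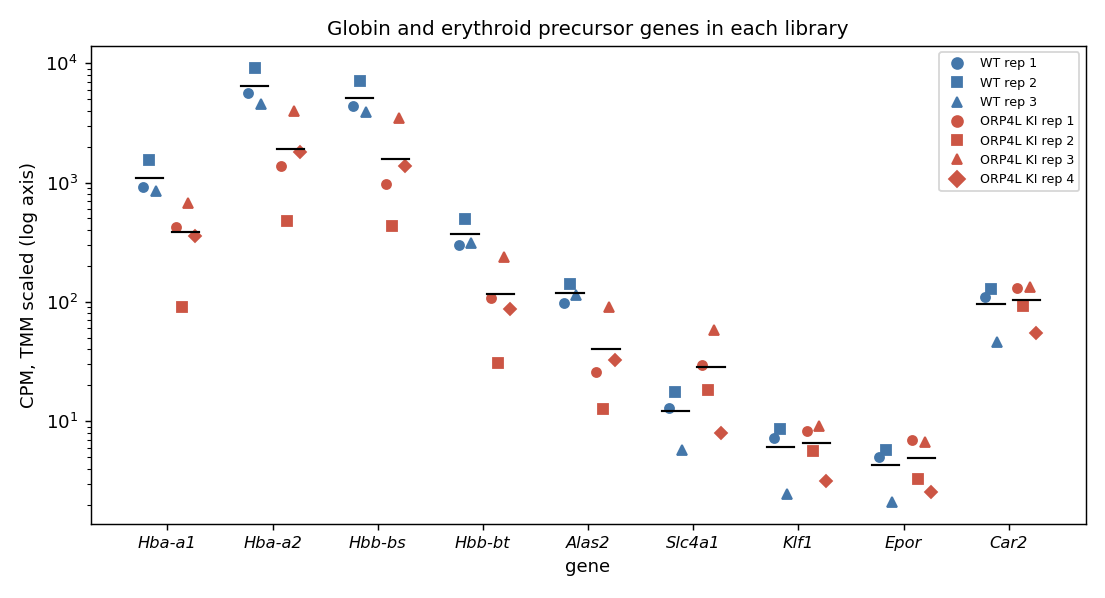
CPM (TMM scaled, log axis) of the 9 genes, with WT libraries in blue, ORP4L KI libraries in red, a marker shape for each replicate and a black line at each group mean. The 4 globin genes and Alas2 are lower in each ORP4L KI library than in each WT library, from 477 to 3981 CPM against 4592 to 9189 CPM for Hba-a2, while the groups overlap for Slc4a1, Klf1, Epor and Car2.

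All 9 genes passed the low-count filter, with at least 30 reads in each library. The study's volcano plot draws its lines at an unadjusted p of 0.01 and at a log2 fold change of 1 in either direction. None of the 9 genes passed both lines in edgeR's quasi-likelihood test, where 4.68% of all tested genes did (2.3% lower and 2.38% higher), and none had an adjusted p under 0.05, where 0.0223% did. At an unadjusted p under 0.05 in edgeR's quasi-likelihood test, 5 of the 9 were lower (the 4 globins and Alas2), against 6.86% of all genes. The same 5 had every ORP4L KI library below every WT library, against 7.38% of all genes, but they vary together and are not separate evidence. The exact two-sided permutation test over the 35 splits gave p = 0.0571 for each of the 5, where the smallest possible is 0.0286, and 0.229 to 0.8 for the other 4. Other tools called more of them. DESeq2's Wald test put Hba-a2 (adjusted p = 0.0369), Hbb-bs (0.0464) and Hbb-bt (0.0388) under an adjusted p of 0.05, edgeR's likelihood ratio test did so for Hba-a2 and Hbb-bt, and edgeR's exact test for Hbb-bt. These 3 tests each called the 4 globins and Alas2 at the thresholds of the volcano plot.

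In the quasi-likelihood test, single libraries moved the globins across the thresholds. Without ORP4L KI replicate 3, the library closest to WT in globin, the 4 globins and Alas2 passed the thresholds of the volcano plot, with log2 fold changes of -1.92 (Hba-a1), -2.40 (Hba-a2), -2.47 (Hbb-bs), -2.30 (Hbb-bt) and -2.32 (Alas2), and edgeR adjusted p-values from 0.0613 to 0.148. Without ORP4L KI replicate 2, the lowest library, Hba-a1 (-1.19), Hba-a2 (-1.45) and Hbb-bt (-1.38) passed them. Scaling by total counts alone, which shifts the median of all genes to -0.13, also brought the 4 globins past them, with log2 fold changes from -1.66 to -1.89. With the replicate number as a block over replicates 1 to 3, Alas2 passed them (log2 fold change -1.91, edgeR adjusted p = 0.194) and the globins did not.

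Relative to the WT mean, the 9 genes followed 2 patterns over the libraries. In ORP4L KI replicate 2, the globins were 3.58 to 3.76 below the WT mean on the log2 scale and Alas2 was 3.22 below it, whereas Slc4a1, Klf1, Epor and Car2 lay between -0.38 and 0.59. In ORP4L KI replicate 3, Slc4a1 was 2.27 above the WT mean while Hbb-bs was at -0.57. In WT replicate 3, the globins and Alas2 lay between -0.50 and -0.05 but Klf1 was at -1.31, Slc4a1 at -1.09, Car2 at -1.04 and Epor at -1.02. The library lowest for the globins and Alas2 was thus not the lowest for the other genes. The sets were read off these levels and are a description.

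**Figure D2:**
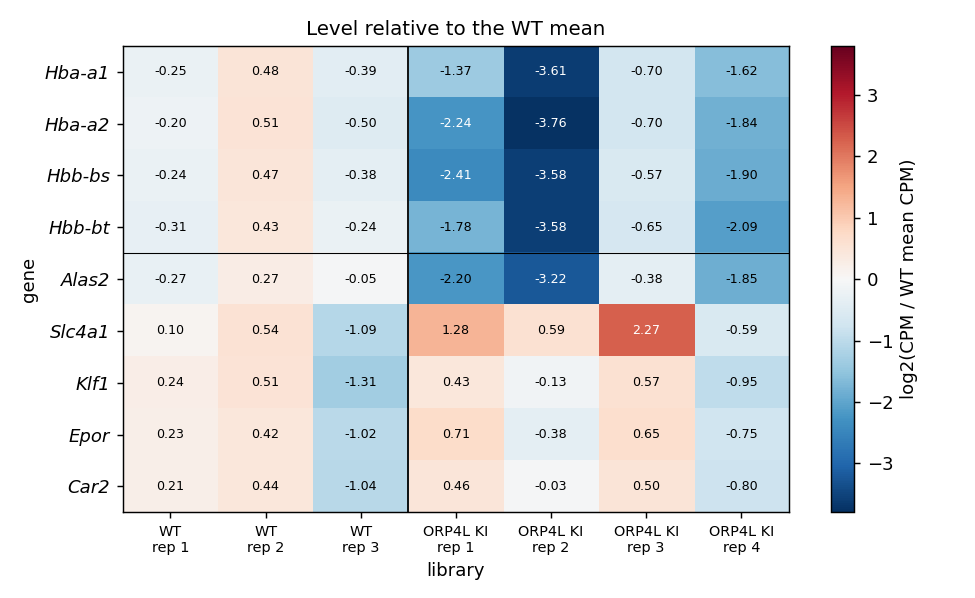
log2 of CPM over the WT mean CPM for each gene (rows) and library (columns), with blue below and red above the WT mean. The 4 globins and Alas2 share 1 pattern, lowest in ORP4L KI replicate 2, while Slc4a1, Klf1, Epor and Car2 are lowest in WT replicate 3 or next to it in ORP4L KI replicate 4.

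Within a set the reads kept nearly fixed proportions. There were 34.1 to 50.3 reads of Hbb-bs for each read of Alas2 in the 7 libraries, and the groups overlapped in this ratio (34.6 to 50.3 in WT and 34.1 to 42.3 in ORP4L KI). Car2 had 14.8 to 18.8 reads for each read of Klf1, although Klf1 itself varied 3.53-fold within WT and 2.86-fold within ORP4L KI. Klf1 had 1.17 to 1.70 reads for each read of Epor. Slc4a1 kept less closely to Klf1, with 1.79 to 2.31 reads per Klf1 read in WT and 2.53 to 6.42 in ORP4L KI, ranges that did not overlap. As a description of these libraries, the genes whose log2 CPM over the 7 libraries was most like that of Hbb-bs among 11568 genes compared were Hba-a2 (r = 0.996), Alas2 (0.993), Hbb-bt (0.982), Rab7b (0.976) and Ccn2 (0.975). Those most like Klf1 were Car2 (r = 0.998), Rhd (0.969), Epor (0.964), Slc38a5 (0.955) and Pigf (0.947). The points of each are the same 7 libraries, which share the scaling factors and the difference between groups.

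**Figure D3:**
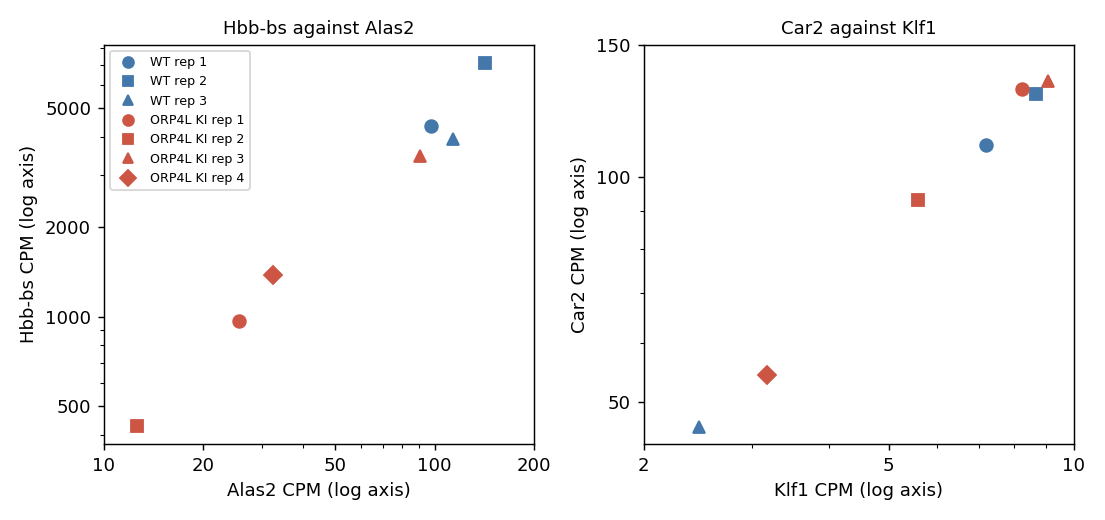
Hbb-bs against Alas2 (left) and Car2 against Klf1 (right), both in CPM on log axes, with 1 point per library, WT in blue and ORP4L KI in red. Hbb-bs and Alas2 order the libraries by genotype, with ORP4L KI replicate 2 lowest, while WT replicate 3 and ORP4L KI replicate 4 are the lowest for Car2 and Klf1.

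The globin to precursor ratio was lower in every ORP4L KI library than in every WT library. The summed globin CPM was 48.2, 60.6 and 56.9 times the summed CPM of the 5 precursor genes in WT replicates 1, 2 and 3 and 14.3, 7.75, 28.0 and 36.1 times in ORP4L KI replicates 1, 2, 3 and 4. Since Alas2 varied with the globins, the ratio was also taken without it. Car2 was then the largest part of the precursor sum in every library, with 110.1 of 135 CPM in WT replicate 1. The ratio without Alas2 was 83.0 to 171 in WT and 8.56 to 53.3 in ORP4L KI, again without overlap. Without Car2 and Epor, which other blood cells express too, the ranges were 79.4 to 109 in WT and 28.3 to 83.2 in ORP4L KI and overlapped. Alas2 had 7.54, 8.04 and 20 reads for each read of Slc4a1 in WT and 0.872, 0.695, 1.55 and 4.05 in ORP4L KI, so in 2 ORP4L KI libraries Slc4a1 had more reads than Alas2. Hbb-bs had 337 to 692 reads per Slc4a1 read in WT and 23.7 to 172 in ORP4L KI. These ratios combine genes chosen together and were not tested.

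**Figure D4:**
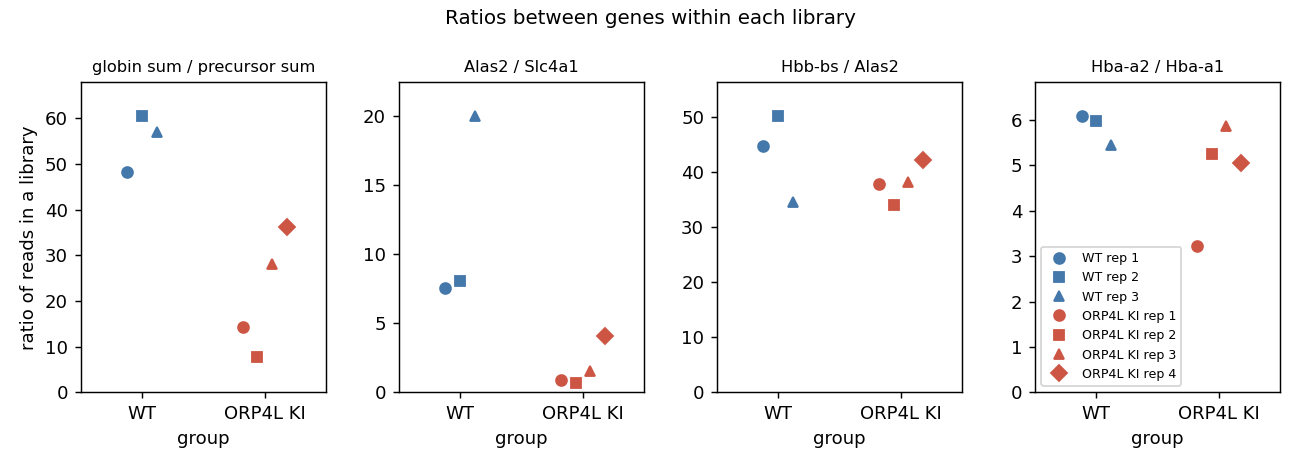
Ratios of reads between genes in each library, all axes from 0, WT in blue and ORP4L KI in red. Globin to precursor and Alas2 to Slc4a1 ratios are lower in each ORP4L KI library than in each WT library, Hbb-bs to Alas2 is at 34.1 to 50.3 throughout, and the Hba-a2 to Hba-a1 ratio of 3.22 in ORP4L KI replicate 1 lies below the 5.05 to 6.10 of the other libraries.

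The division of reads between paralogs was steady except in 1 library. Hba-a2 had 5.44 to 6.10 reads for each read of Hba-a1 in WT and 5.05 to 5.87 in ORP4L KI replicates 2, 3 and 4, but 3.22 in ORP4L KI replicate 1. Hbb-bs had 12.6 to 15.9 reads for each read of Hbb-bt in 6 libraries and 8.99 in ORP4L KI replicate 1. That library also held the most neutrophil marker reads. Whether its ratios come from the animal or from the mapping of shared reads was not tested. Per length, in the deposited RPKM, the alpha genes together had 1.45 to 1.60 times the beta genes in WT and 1.40 to 1.90 times in ORP4L KI, so the balance of the chains' mRNAs overlapped between groups. In the same RPKM, the median level in WT was 10838 for Hba-a2, 7366 for Hbb-bs, 1788 for Hba-a1 and 546 for Hbb-bt. The ranges of Hba-a2 (8981 to 16289) and Hbb-bs (6781 to 11116) overlapped, and the other globins were apart from their neighbours in this order. Alas2 (63.3) and Car2 (61.7) came next with overlapping ranges, and then Klf1 (5.29), Slc4a1 (3.07) and Epor (2.97), whose ranges also overlapped. In ORP4L KI the medians were 2498 for Hba-a2, 1624 for Hbb-bs, 614 for Hba-a1 and 135 for Hbb-bt, in wide ranges that each overlapped the next. Car2 (54.6) then stood above Alas2 (13), also with overlap, and Slc4a1 (4.86), Klf1 (4.39) and Epor (2.57) overlapped.

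Embryonic globins were near or at 0. Hba-x and Hbb-y, the embryonic alpha-like and beta-like chains, had 0 reads in the 7 libraries, where 3 reads would be 0.164 to 0.211 CPM. Hbb-bh1 had 3 reads in WT replicate 1 and Hbb-bh2 had 2 reads in WT replicate 2, with 0 elsewhere. The theta globin genes Hbq1a and Hbq1b had 0 to 4 and 0 to 13 reads. None of these 6 genes passed the filter.

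Other erythroid genes, from 8 lists of 79 genes, gave 67 tested genes. None was called at either threshold in edgeR's quasi-likelihood test, and 8 had an unadjusted p under 0.05, against 13.7% of all genes. Their median log2 fold change was 0.21, against 0.01 over all genes. Scaling by total counts alone put the median of all genes at -0.13 and those of these lists between -0.71 and 0.36, so medians near 0 have no firm sign. DESeq2's Wald test put Nfe2 and Bcl11a under an adjusted p of 0.05, and edgeR's exact and likelihood ratio tests did so for Bcl11a. Heme synthesis had a median of 0.26 over 8 genes. Alas1, the housekeeping form of the enzyme that Alas2 provides in erythroid cells, had 18.2 to 25.5 CPM in WT and 28.3 to 89.3 CPM in ORP4L KI, a log2 fold change of 1.13 (standard error 0.38, edgeR adjusted p = 0.208), of opposite sign to Alas2. Ppox, a later enzyme of the pathway, was at 0.21 (edgeR adjusted p = 0.815). Iron uptake and mitochondrial import had a median of 0.16 over 8 genes, with the transferrin receptor Tfrc at 0.48 (edgeR adjusted p = 0.498) and Tmem14c at 0.24 (0.85).

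Genes of the red cell membrane and skeleton, the partners of Slc4a1, had a median log2 fold change of 0.48 over 17 genes, with 16 fitted higher in ORP4L KI (15 with total counts alone) and 0 called. Gypc, which many blood cells express, was the 1 gene fitted lower (log2 fold change -0.55, edgeR adjusted p = 0.223), and Epb41 was at 0.10 (0.922). The median over 11 erythroid transcription factors was 0.20. Gata1, which works with Klf1, was at -0.06 (edgeR adjusted p = 0.964), Ldb1 at 0.03 (0.973) and Zfpm1 at -0.22 (0.858). Nfe2, which is expressed in megakaryocytes and myeloid cells as well, had 21.6 to 51.4 CPM in WT and 32.1 to 187 CPM in ORP4L KI (log2 fold change 1.59, edgeR adjusted p = 0.22). Bcl11a, a repressor of embryonic and fetal globin genes that is also expressed in B cells, had 26.8 to 37.1 CPM in WT and 14.2 to 22.2 CPM in ORP4L KI, without overlap (log2 fold change -0.84, edgeR adjusted p = 0.143). Over 7 genes of erythropoietin signalling the median was -0.05, with Jak2, the kinase bound to Epor, at 0.02 (edgeR adjusted p = 0.989) and Pim1 at -0.05 (0.96).

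The late erythroblast list had the lowest median among these lists, -0.53 over 9 genes. Bpgm, which makes the red cell metabolite that lowers the oxygen affinity of hemoglobin, had 46.8 to 63.8 CPM in WT and 23.9 to 51.6 CPM in ORP4L KI (log2 fold change -0.72, edgeR adjusted p = 0.299). It passed the thresholds of the volcano plot without ORP4L KI replicate 3. Ube2l6 was at -0.53 (edgeR adjusted p = 0.535) and Xpo7 at 0.10 (0.917), while Hemgn was at 0.92 (0.441). The carbonic anhydrase and anion exchanger list had a median of -0.03 over 7 genes. Car1, the other abundant red cell carbonic anhydrase, had 56.7 to 149 CPM in WT and 33.2 to 106 CPM in ORP4L KI (log2 fold change -0.51, edgeR adjusted p = 0.69). Slc4a7, a bicarbonate transporter of many cells, was at -0.10 (0.946).

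**Figure D5:**
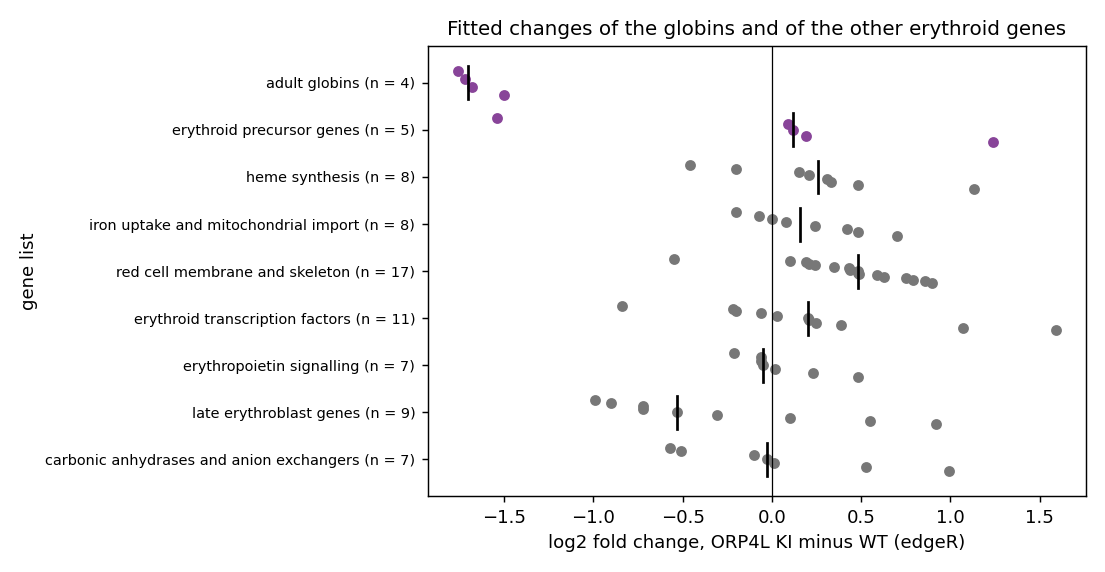
edgeR log2 fold changes (ORP4L KI minus WT) of the tested genes of each list, with 1 point per gene, the 9 genes in purple, other erythroid genes in grey and a black bar at each list's median. The globins lie between -1.76 and -1.50 with Alas2 at -1.54, apart from the medians of -0.53 to 0.48 of the other erythroid lists.

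In bulk libraries, fewer erythroid cells and less globin mRNA per cell cannot be told apart. Markers of other cell types also moved between libraries. At the thresholds of the volcano plot, which 2.38% of all genes passed as higher and 2.3% as lower, all 14 neutrophil lineage markers were called higher in ORP4L KI. Within ORP4L KI they were lowest in replicate 2 and highest in replicate 1, whereas globin was lowest in replicate 2 and highest in replicate 3. T-cell markers were highest in ORP4L KI replicate 2 (3598 CPM), the library with the least globin (1028 CPM). They were lowest in ORP4L KI replicate 1 (1236 CPM), the library with the next least globin (2877 CPM). The list of erythroblastic island macrophage markers was named for a cell type that nurses erythroblasts in the spleen and marrow. Other macrophages express genes of this list too, so its values do not identify that cell type. The markers summed to 225 to 471 CPM in WT and 144 to 299 CPM in ORP4L KI. Of the 10 genes, 9 were fitted lower, and Siglec1 (log2 fold change -1.96) and Spic (-1.19) were called lower. Siglec1 had only 2 to 17 reads in each ORP4L KI library. Megakaryocyte and platelet markers, of the lineage closest to the erythroid one, summed to 265 to 309 CPM in WT and 141 to 479.9 CPM in ORP4L KI, with 0 of 10 called. B-cell markers summed to 290.3 to 508 CPM in WT and 146 to 506 CPM in ORP4L KI, with 0 of 8 called. Proliferation markers summed to 199 to 373 CPM in WT and 479 to 1144 CPM in ORP4L KI, with 2 of 10 called higher. None of the markers called in these lists had an adjusted p under 0.05 in edgeR's quasi-likelihood test. No marker of these 6 lists was at 0 throughout a group. The part of these cells in the globin result was not tested.

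The upstream sequences of the genes that varied together are shown for comparison with Klf1, which was in the other set. They are the 120 bases before the annotated start, from RefSeq on GRCm38.p6, and the capitals mark AGATAA, a sequence that GATA factors bind, and CCNCNCCC, a sequence that KLF factors bind, on either strand.
Hba-a2, chr11:32296372-32296491, plus strand: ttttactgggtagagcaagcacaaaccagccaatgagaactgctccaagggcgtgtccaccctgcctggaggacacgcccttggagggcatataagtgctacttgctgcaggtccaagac
Hbb-bs, chr7:103827929-103828048, minus strand: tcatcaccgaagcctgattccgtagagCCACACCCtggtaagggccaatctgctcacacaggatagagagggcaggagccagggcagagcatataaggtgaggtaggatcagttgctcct
Hbb-bt, chr7:103813924-103814043, minus strand: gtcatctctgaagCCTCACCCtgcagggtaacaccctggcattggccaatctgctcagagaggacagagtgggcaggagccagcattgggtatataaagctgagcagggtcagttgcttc
Alas2, chrX:150547297-150547416, plus strand: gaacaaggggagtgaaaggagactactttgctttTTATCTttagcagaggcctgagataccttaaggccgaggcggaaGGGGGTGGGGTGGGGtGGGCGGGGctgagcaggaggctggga
Klf1, chr8:84901862-84901981, plus strand: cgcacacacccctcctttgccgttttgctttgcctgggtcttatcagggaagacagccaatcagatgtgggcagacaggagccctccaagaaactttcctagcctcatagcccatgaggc

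Promoters were found for 7 of the 9 genes. In the 250 bases before the start, AGATAA occurred in 3 of the 7 (Hbb-bs, Alas2 and Epor) and in 9.99% of all 32851 promoters. CCNCNCCC occurred in 4 of the 7 (Hbb-bs, Hbb-bt, Alas2 and Epor) and in 45.9% of all promoters. Hba-a1, Hba-a2 and Klf1 held neither of these exact sequences in this window. Epor, which varied with Klf1, held both. Only these sequences were searched, so other forms that GATA or KLF factors may bind were not counted.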

How the data were processed

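RNA sequencing counts of T-cells from 4 ORP4L KI and 3 WT mice were analysed. The authors mapped adapter-trimmed reads to a mouse mRNA reference with FANSe3 (version not given in the sources used here), merged splice variants, and deposited for each gene the read count without normalization and the RPKM, per the file headers computed on the longest transcript, whose length they also list. How reads that map to several genes were counted is not stated, which bears on the globins. Groups and replicate numbers come from the labels. No 2 libraries matched within sampling noise (smallest chi-square per degree of freedom 27.8 over 21 pairs).

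Counts were tested in R 4.3.3 with edgeR 4.0.16 (filterByExpr, TMM, quasi-likelihood test, no covariates), adjusted over 13462 genes. A call was an unadjusted p under 0.01 with a log2 fold change above 1 in size, or separately an adjusted p under 0.05. The standard error was the log2 fold change divided by the square root of F. Permutation tests used log2(CPM + 0.1), and likeness was Pearson's r on the same scale among genes with a mean of at least 1 on it. RPKM was used only to compare levels between genes and as an alternative. On simulated data with 195 of 13175 genes changed by 2 on the log2 scale, the first thresholds recovered 194 of them (52 false) and the adjusted threshold recovered 181 (11 false). These rates do not carry over to the libraries here. In them the 14 neutrophil lineage markers had log2 fold changes of 2.26 to 4.72, and 0 passed the adjusted threshold. A gene not called here may therefore still differ. Alternatives were DESeq2 1.42.0, other edgeR tests, scalings, filters, a replicate block, summed paralogs and each library left out. The methods name no differential test. P-values and the 95% intervals of log2 fold changes measure the spread between these animals, while floors for low counts cover counting error only. The genes and lists were chosen with earlier results of these data known. The genes named are the 9 genes, the 2 most abundant genes of each other erythroid list, and the 5 genes most like Hbb-bs and Klf1. Gata1, Nfe2, Bcl11a, Bpgm, Hemgn, Hbb-b1, Hbb-b2, Siglec1 and Spic were chosen after their values were seen. Ahsp and Trac of the lists matched no row by symbol and were not analysed here. Coding sequences (GENCODE vM21) and promoters (RefSeq) were compared with Biopython 1.88.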

Additional observations from a re-analysis of the deposited data

How the results depend on the processing

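The globins and Alas2 kept a negative log2 fold change in every alternative run, from -2.47 to -1.19, and Slc4a1 a positive one, from 0.62 to 1.61. Over the 9 genes, 115 of the alternative values kept direction and side of the thresholds, 32 newly passed them and 11 reversed. The reversals with total counts alone were Klf1 (-0.041) and Car2 (-0.014). With each library left out in turn, Klf1 took values from -0.28 to 0.43, Epor from -0.14 to 0.45 and Car2 from -0.21 to 0.40. The cause was not tested.

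At the thresholds of the volcano plot, 0 globins were called in the quasi-likelihood test. The number was 4 with total counts alone, DESeq2's Wald test, edgeR's exact test and the likelihood ratio test, 3 without a filter, and 0 to 4 with single libraries left out. Of the precursor genes, 1 (Alas2) was called without a filter, with the Wald, exact and likelihood ratio tests and with the replicate block, and 0 to 1 with single libraries left out. Of the other erythroid genes, 2 (Alas1 and Nfe2) were called without a filter and with the Wald, exact and likelihood ratio tests, and 0 to 2 with single libraries left out. Over all genes, 630 were called, and 328 to 805 with single libraries left out.

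At an adjusted p under 0.05, the Wald, exact and likelihood ratio tests called 3, 1 and 2 globins and 2, 1 and 1 other erythroid genes, and 0 to 1 other erythroid genes were called with single libraries left out. Over all genes the count was 3. It was 44 with upper-quartile scaling, 113 with total counts, 176 without a filter, 0 with at least 10 counts in every library (1549 at an unadjusted p under 0.05 by edgeR), 784, 682 and 706 with the Wald, exact and likelihood ratio tests, 48 with the replicate block, and 0 to 342 with single libraries left out. Replicate numbers do not mark shared animals, and deviations of same-numbered libraries correlated at 0.148, -0.529 and -0.005, so the block, which leaves out ORP4L KI replicate 4, is an alternative only. Total counts gave 40.3% of calls as higher, against 50.8% with TMM. Depth limits Klf1 and Epor most, at 30 to 158 reads a library. Summing Hbb-b1 and Hbb-b2 into beta globin, added after the data were seen, left its log2 fold change at -1.72. The median globin to precursor ratio in ORP4L KI was 0.372 of that in WT, and 0.251 to 0.516 with RPKM, without Car2 and Epor, or with single libraries left out. Without Alas2, an alternative added after the data were seen, it was 0.248.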
